A study of Mus musculus with 24 samples.

Results

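Fpr1 and Fpr2 encode the formyl peptide receptors of mouse phagocytes, and their rows were taken from the count files by symbol, 2 of the 23420 genes listed. They were selected on the Tet cohort, in which both started higher before stimulation in macrophages lacking the TET proteins and reached the wild-type level after stimulation. The values of that cohort therefore chose the genes and are given below as a description, without a test. The Tdg cohort played no part in the choice, and the tests on the receptors were run there.

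The study asked what TET enzymes, which oxidise 5-methylcytosine, and thymine DNA glycosylase (TDG), which excises oxidised bases, do in differentiating T cells and in activated macrophages. RNA-seq counts per gene were available for 24 libraries, all from C57BL/6 mice. Bone marrow-derived macrophages (BMDMs), grown with L929-conditioned medium as a source of M-CSF, gave 16 libraries in 8 groups of 2. In the Tdg cohort, wild-type (TdgWT) and Tdg-iKO (TdgKO) BMDMs were left untreated (KLA-0h) or treated with KLA for 6 h (KLA-6h). In the Tet cohort, wild-type (TetWT) and TET-iTKO (TetTKO) BMDMs received the same treatments. KLA is Kdo2-lipid A, the minimal active part of lipopolysaccharide, which signals through TLR4. The other 8 libraries were Th2 cells of the genotypes TdgWT and TdgKO, 4 of each. The deletions were made in adult mice by tamoxifen injection, with a Cre-ERT2 that was not restricted to macrophages acting on floxed Tdg or on floxed Tet1, Tet2 and Tet3 together, and control mice were injected as well. The labels do not say whether the replicates of a group came from separate animals, so the p-values measure the spread between these libraries, which may be technical.

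Formyl peptide receptors are G protein-coupled receptors of neutrophils, monocytes and macrophages. They bind peptides that begin with formylmethionine, which are released by bacteria and by damaged mitochondria, and Fpr2 also binds host ligands such as annexin A1 and serum amyloid A. The receptors couple to inhibitory G proteins and from there to phosphoinositide 3-kinase gamma, Rac and phospholipase C, which drive chemotaxis and the NADPH oxidase burst.

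Fpr1 lies on chromosome 17 of mm9 from 18013435 to 18020904 on the minus strand, and Fpr2 from 18024788 to 18030916 on the plus strand (GENCODE vM1). The genes point away from each other, with 3883 bases between their starts, as the map of the gene models shows. In the coding transcript of each gene the coding stretch lies in the second exon of 2, and Fpr2 has a further transcript without a coding part. The coding stretches of Fpr1 and Fpr2 were identical at 69.8% of the aligned bases, those of Fpr2 and the next family member Fpr3 at 88.2%. Of the 50-base windows of the Fpr2 transcript, 403 of 1084 (37.2%) also occurred elsewhere in the genome, with 445 matches within Fpr3 and 1 within Fpr1. For Fpr1 this held for 1 of 1275 windows. A read placed wholly in such a window has no unique position by itself and can fall into the not-unique tally of the count files. The reads were paired, so a mate in unique sequence can still place it. The counts of Fpr2 are the more exposed to the copy, by an amount that was not measured. The first exons of Fpr2 and Fpr3 also share 48 exonic bases in this annotation.

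**Figure D1:**
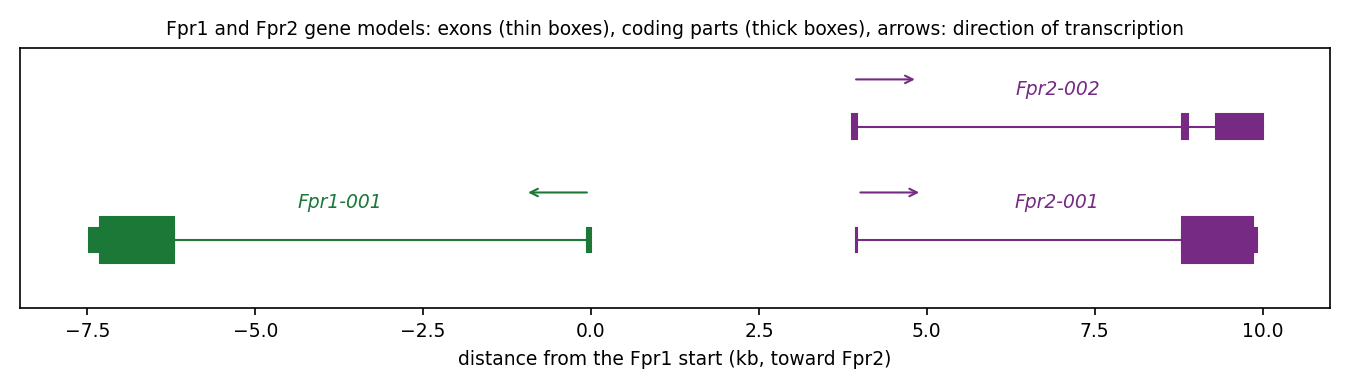
Gene models of Fpr1 and Fpr2 drawn to scale by distance in kb from the Fpr1 start (x axis). Thin boxes are exons, thick boxes coding parts and arrows the direction of transcription; the 2 genes start 3883 bases apart and run away from each other.

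The promoters are shown because both genes rose with KLA in every genotype described below. Each stretch runs from 250 bases before to 50 bases after the RefSeq start (table of build GRCm38.p6), and each was found once, without a mismatch, on mm9 chromosome 17, at chr17:18020854-18021153 (minus strand) for Fpr1 and chr17:18024538-18024837 (plus strand) for Fpr2. Capitals mark matches to the motifs searched on both strands, which were the C/EBP motif TTNNGNAA, the gamma-activated sequence TTCNNNGAA of STAT factors, the box TATAAA, the AP-1 motif TGANTCA, the motif AGGAAG of PU.1 and other ETS factors, and the NF-kB motif. No 2 matches overlap.
Fpr1: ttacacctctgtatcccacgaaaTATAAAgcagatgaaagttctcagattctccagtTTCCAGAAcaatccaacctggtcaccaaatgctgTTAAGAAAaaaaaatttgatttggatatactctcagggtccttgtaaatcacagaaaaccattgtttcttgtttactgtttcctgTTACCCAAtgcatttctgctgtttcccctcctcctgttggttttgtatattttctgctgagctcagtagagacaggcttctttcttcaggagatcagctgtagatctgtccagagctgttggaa
Fpr2: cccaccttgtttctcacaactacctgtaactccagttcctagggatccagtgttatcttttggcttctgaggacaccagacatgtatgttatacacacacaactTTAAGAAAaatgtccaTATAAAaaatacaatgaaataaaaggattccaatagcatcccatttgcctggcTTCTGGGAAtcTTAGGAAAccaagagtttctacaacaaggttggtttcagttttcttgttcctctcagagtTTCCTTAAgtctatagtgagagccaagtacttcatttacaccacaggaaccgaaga

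Both promoters held 3 matches to the C/EBP motif. At least 1 match to it occurred in 40.7% of the 32841 promoters of the same length, and the share with 3 was not counted. A TATAAA match lay far upstream of the start in both, and such a match occurred in 13.6% of promoters. The gamma-activated sequence matched once in Fpr2 and not in Fpr1 (8.3% of promoters). Neither window held a match to the NF-kB motif (8.46% of promoters), AP-1 (7.81%) or the ETS motif (35.4%), which says only that these letters are not in these windows. Each promoter held 1 CpG, the dinucleotide at which most methylation of mouse DNA lies, against a median of 7 over all promoters, and 14.1% of promoters held at most 1. The 3883 bases between the starts held 14 CpGs, 0.361 per 100 bases, against 0.932 per 100 bases over chromosome 17.

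Assigned counts ranged from 4982950 to 21503302 per BMDM library. The totals per gene of Tet2 and Tet3 were not lower in the libraries labelled TetTKO, and Tdg had at most 3 counts in any BMDM library, wild type included, so the totals of the targeted genes do not check the labels. Defining macrophage markers such as Csf1r, Emr1 and Lyz2 were abundant in all 16 BMDM libraries. TdgWT replicate 2 at 0 h stood apart in depth, as the shallowest BMDM library, and in stimulation genes. Its summed normalised count over the 9 genes of the KLA response list was 37751, against 7128 to 19740 in the other 3 unstimulated libraries of the cohort, and Ccl5 made up 30448 of it. The log2 changes of the receptors that use this library are therefore also given without it. The ranges and shares below include it.

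The receptors were present at a moderate level in unstimulated macrophages and at a high level after KLA. Normalised counts, scaled with 1 set of median-of-ratios size factors over the 16 BMDM libraries, are given for replicate 1 and then replicate 2. At 0 h Fpr1 measured 993 and 1163 in TdgWT, 1070 and 947 in TdgKO, 1034 and 847 in TetWT, and 2609 and 3588 in TetTKO. At 6 h it measured 11265 and 12272 in TdgWT, 10865 and 11625 in TdgKO, 11120 and 11750 in TetWT, and 12183 and 12994 in TetTKO. The TetTKO libraries at 0 h thus stood between the other unstimulated libraries and all stimulated ones and overlapped neither. The pair was selected for its higher level in this group, so the gap is a description. How many of all genes show such a gap was not counted.

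Fpr2 had lower counts, with the same order of group means as Fpr1 at 0 h but not at 6 h. At 0 h it measured 332 and 589 in TdgWT, 456 and 445 in TdgKO, 345 and 351 in TetWT, and 897 and 1214 in TetTKO. At 6 h it measured 2972 and 4348 in TdgWT, 2709 and 4031 in TdgKO, 3566 and 4206 in TetWT, and 3844 and 4460 in TetTKO. Again the 2 TetTKO libraries at 0 h, on which the selection rests, lay apart from the groups on either side.

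Ordered by mean, the Fpr1 groups ran from TetWT at 0 h (940 ± 132, SD, n = 2) through TdgKO (1008 ± 86.9) and TdgWT at 0 h (1078 ± 120) to TetTKO at 0 h (3099 ± 692). They went on with TdgKO at 6 h (11245 ± 538), TetWT at 6 h (11435 ± 446), TdgWT at 6 h (11769 ± 713) and TetTKO at 6 h (12588 ± 573). Only the steps on either side of TetTKO at 0 h, the group on which the selection rests, were free of overlap between neighbouring groups. For Fpr2 the order was TetWT, TdgKO, TdgWT and TetTKO at 0 h, with means of 348 ± 4.58, 451 ± 7.80, 460 ± 181 and 1056 ± 224. After KLA it was TdgKO, TdgWT, TetWT and TetTKO, with means of 3370 ± 935, 3660 ± 973, 3886 ± 452 and 4152 ± 436, and these 4 groups overlapped throughout. Among the lower groups of Fpr2, TetWT and TdgKO at 0 h did not overlap, while TdgKO lay inside the range of TdgWT. TetWT and TdgKO belong to different cohorts, so a difference of genotype and one of cohort cannot be told apart there.

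**Figure D2:**
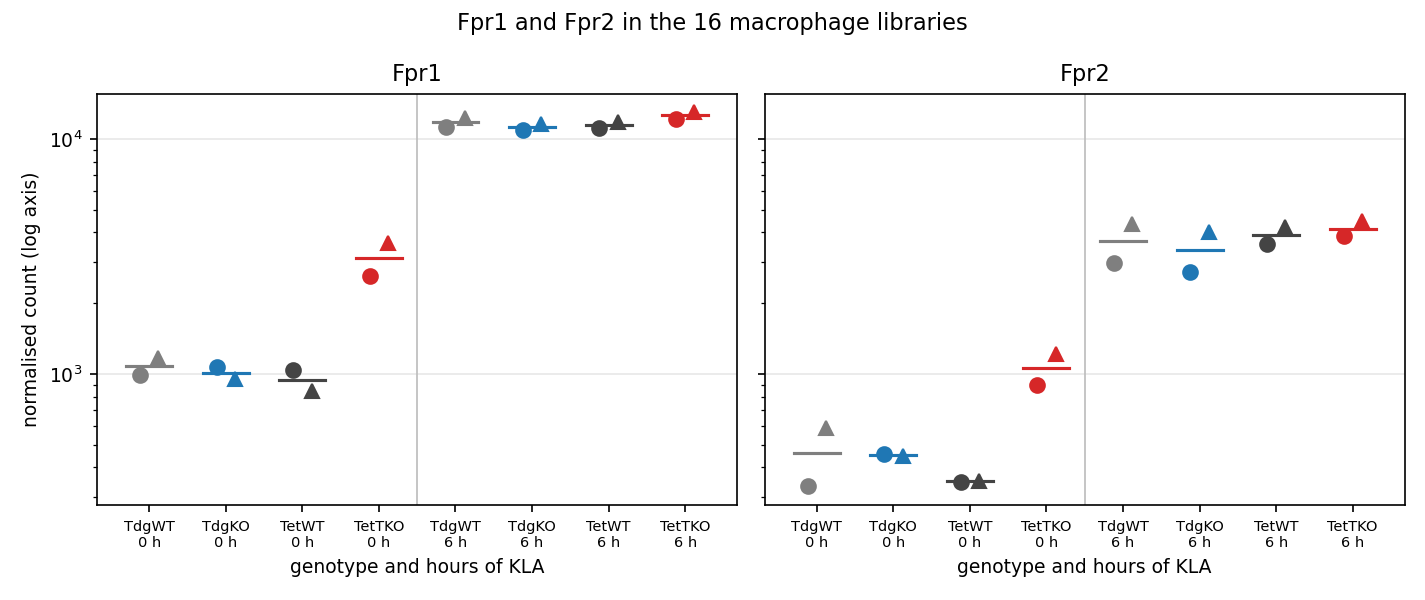
Normalised counts (log axis) of Fpr1 (left) and Fpr2 (right) in each BMDM library by genotype and hours of KLA (x axis); circles are replicate 1, triangles replicate 2 and bars group means of 2. At 0 h the TetTKO libraries (2609 and 3588 for Fpr1, 897 and 1214 for Fpr2) lie above the other groups, and at 6 h the 4 genotypes lie close together.

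In CPM (assigned counts scaled to a common library total) per kilobase of exon, Fpr1 averaged 54.6 to 61.3 in the 3 groups TdgWT, TdgKO and TetWT at 0 h, 186 in TetTKO at 0 h and 601 to 700 in the stimulated groups. Fpr2 averaged 20.6 to 27.95, 64.8 and 182 to 236 on the same scale. The level of Fpr1 per length was 1.93 to 3.93 times that of Fpr2 over the 16 libraries. Divided instead by the number of 50-base windows that occur once in the genome (1228 for Fpr1, 669 for Fpr2), the ratio was 1.08 to 2.18. This second scale treats each read alone, without its mate. Fpr1 was the higher of the pair in each library on both scales, but by an amount that depends on how the copy in Fpr3 is treated.

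Both receptors had 0 counts in all 8 Th2 libraries. A count of 0 allows up to 3 counts, which is 0.113 to 0.393 CPM in these libraries, for counting error only. The measured relatives had few or no counts in macrophages. Fpr3 reached at most 2 counts in a BMDM library, and Fpr-rs3, Fpr-rs4 and Fpr-rs6, relatives known for expression in the vomeronasal organ, had 0 counts in all of them. Fpr-rs7 is not analysed here. Among the nearest genes on the other side, Has1, a hyaluronan synthase, reached 7 counts and Mir125a 8, while Ncrna00085 reached 787, and beyond Fpr3 and Fpr-rs4 the vomeronasal receptor Vmn2r91 had 0.

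KLA raised both receptors in the Tdg cohort. In TdgWT, Fpr1 rose by 3.46 on the log2 scale (SE 0.25, adjusted p = 1.26e-41) and Fpr2 by 3.01 (SE 0.38, adjusted p = 9.23e-13), by DESeq2's Wald test with adjustment over all genes tested. Of the 11530 genes tested in this comparison, 8.73% were called at an adjusted p under 0.05. In TdgKO the log2 changes were 3.49 (SE 0.24) and 2.91 (SE 0.38), with 7.16% of genes called. Averaged over both genotypes, Fpr1 rose 11.1-fold (log2 3.47, SE 0.17) and Fpr2 7.77-fold (log2 2.96, SE 0.27), with 15.7% of 11821 genes called, 8.76% higher and 6.94% lower. Among those genes Fpr1 ranked 117 and Fpr2 166 by size of the rise. In each genotype the lowest stimulated library was above the highest unstimulated one, 9.69-fold for Fpr1 and 5.05-fold for Fpr2 in TdgWT. For both genes the highest unstimulated library of TdgWT was replicate 2, which stood apart. Without TdgWT replicate 2 at 0 h, the log2 change in TdgWT was 3.57 for Fpr1 and 3.46 for Fpr2. The averaged change was 3.52 for Fpr1 and 3.18 for Fpr2 without it.

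Loss of TDG moved neither receptor detectably. At 0 h TdgKO differed from TdgWT by a log2 of -0.09 for Fpr1 (95% interval -0.57 to 0.39) and of -0.01 for Fpr2 (-0.77 to 0.74). At 6 h the differences were -0.06 (-0.54 to 0.41) and -0.12 (-0.86 to 0.62). The effect of KLA differed between the genotypes by 0.03 (-0.65 to 0.70) for Fpr1 and by -0.10 (-1.16 to 0.95) for Fpr2. The adjusted p from DESeq2 was 1 for both genes at both times. A difference inside these intervals was not excluded by these libraries. In all 3 comparisons DESeq2 called 0 of 15026 genes (0%), with 265, 34 and 37 genes at an unadjusted p under 0.05, and edgeR also called 0. Each of these numbers is below a share of 0.05 of the genes, the share that p-values give when nothing differs. The 0 calls therefore do not show that loss of TDG changed no gene. Without TdgWT replicate 1 at 0 h, which leaves the library that stood apart as the only control at 0 h, 1136 genes were called between the genotypes at 0 h and 241 in the interaction, and neither receptor was among them. Without replicate 2 the TDG effect at 0 h was 0.02 for Fpr1 and 0.44 for Fpr2, with 2 genes called, and the difference between KLA effects was -0.09 and -0.56.

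**Figure D3:**
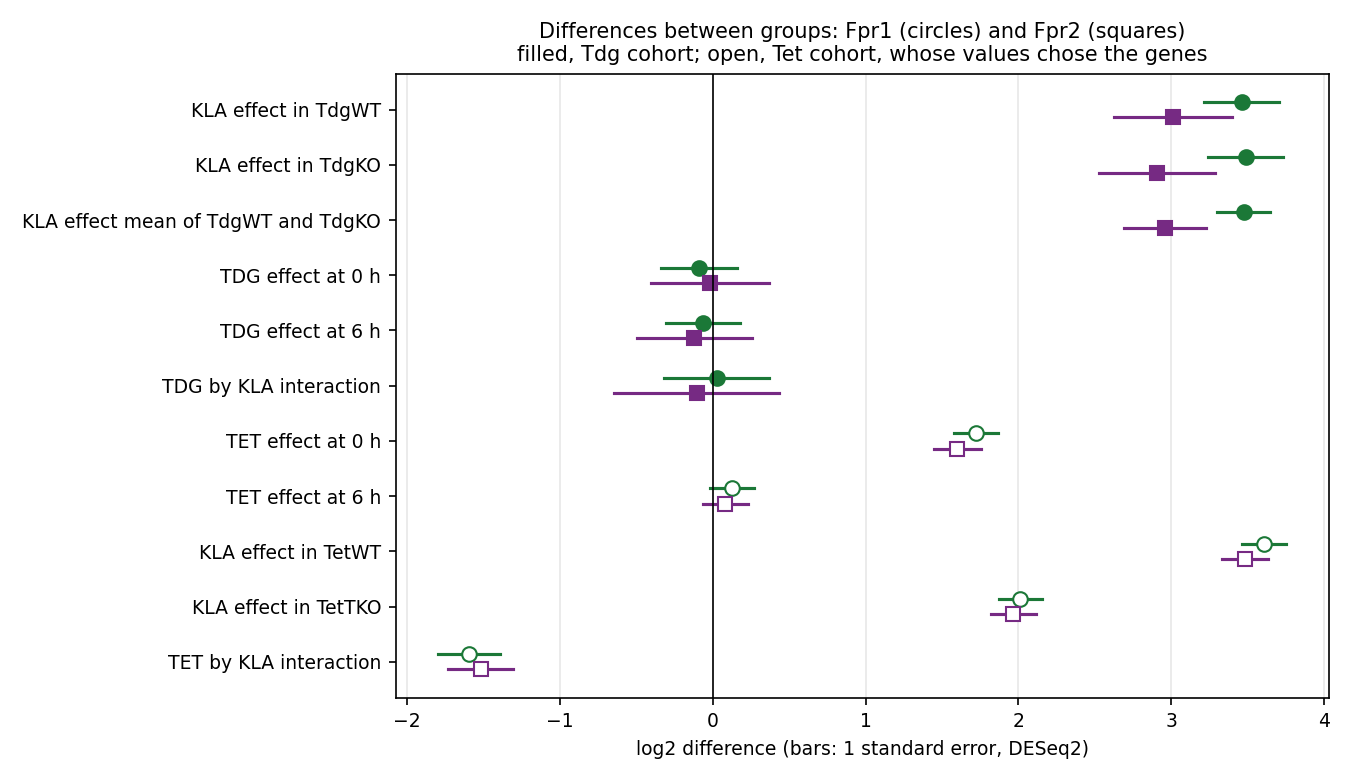
Log2 differences with 1 standard error (x axis, DESeq2) for Fpr1 (circles) and Fpr2 (squares) in each comparison of the Tdg cohort (filled) and the Tet cohort (open). KLA effects lie near 3 to 3.6 in TdgWT, TdgKO and TetWT and near 2 in TetTKO, and the TDG effects lie at 0 within their errors.

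The values that chose the pair came from the Tet cohort. At 0 h TetTKO was above TetWT by a log2 of 1.72 (SE 0.14, 3.30-fold) for Fpr1 and of 1.60 (SE 0.15, 3.03-fold) for Fpr2, in a comparison in which 7.56% of 12114 genes were called. At 6 h the difference was 0.13 (SE 0.14) and 0.08 (SE 0.15), with 6.27% of genes called. KLA raised Fpr1 by 3.61 and Fpr2 by 3.48 on the log2 scale in TetWT (24.3% of genes called) and by 2.01 and 1.96 in TetTKO (22.5% called). The fold of induction was thus 12.2 and 11.2 in TetWT against 4.04 and 3.90 in TetTKO, a difference on the log2 scale of -1.59 (SE 0.20) and -1.52 (SE 0.21), where 0.429% of genes were called. The size of the 0 h difference depended on the TetTKO library used, since it was 1.93 and 1.80 for the 2 genes with replicate 2 alone and 1.47 and 1.36 with replicate 1 alone.

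In normalised counts rather than folds, the genotypes were closer. KLA added 10495 normalised counts of Fpr1 in TetWT and 9490 in TetTKO, and 3538 and 3096 of Fpr2. Taken over all pairings of libraries, the increase of Fpr1 spanned 10086 to 10904 in TetWT and 8595 to 10385 in TetTKO, ranges that overlap. Before KLA the TetTKO libraries already stood at 20.7% and 28.5% of the TetTKO level at 6 h for Fpr1 and at 21.6% and 29.2% for Fpr2. In TetWT these shares were 9.04% and 7.41% for Fpr1 and 8.87% and 9.04% for Fpr2. The Tdg cohort, which did not choose the genes, gave 8.42% to 9.88% for Fpr1 and 9.08% to 16.1% for Fpr2. The highest value of each gene came from TdgWT replicate 2, the library that stood apart. The next highest were 9.51% and 13.5%, both in TdgKO replicate 1.

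The pattern by which the pair was selected was met by 212 of the 11823 genes tested in the 3 comparisons it uses, namely higher in TetTKO at 0 h, higher after KLA in TetWT and called in neither direction between the genotypes at 6 h. These comparisons share libraries, and not being called at 6 h does not show that a gene had the same level in both genotypes. Among the 212, Fpr1 ranked 27 and Fpr2 36 by the size of the 0 h difference.

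The share of the pair taken by Fpr2 was compared before and after KLA. Fpr2 gave 20.0% to 33.6% of the summed Fpr1 and Fpr2 counts over the 16 libraries. In the Tet cohort the share was 25.02% and 29.3% in TetWT and 25.6% and 25.3% in TetTKO at 0 h, and 24.3% and 26.4% in TetWT and 23.98% and 25.6% in TetTKO at 6 h. In the Tdg cohort it was 25.1% and 33.6% in TdgWT and 29.9% and 32.0% in TdgKO at 0 h, and 20.9% and 26.2% in TdgWT and 20.0% and 25.7% in TdgKO at 6 h. The mean fell by 6.96 percentage points, from 30.1% ± 3.71 to 23.2% ± 3.22 (SD, n = 4), but the times overlapped and the difference did not pass a two-sided exact permutation test (p = 0.0857; the smallest p possible is 0.0286). The share was lower at 6 h in 4 of 4 pairs of the same genotype and number, for which an exact test cannot go below p = 0.125, so neither a change nor its absence was shown. In each group of this cohort it was also lower in replicate 1 than in replicate 2, so that at 6 h the means by number were 20.4% and 25.95%.

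**Figure D4:**
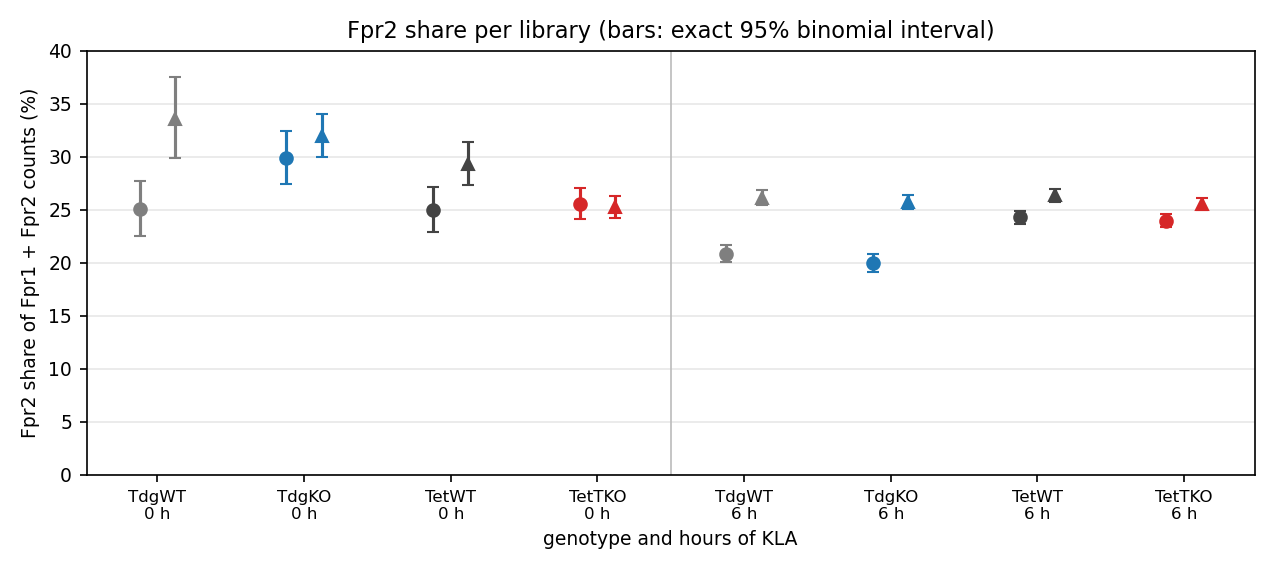
Fpr2 share of the summed Fpr1 and Fpr2 counts (y axis, %) in each BMDM library, with exact 95% binomial intervals that cover counting error only; circles are replicate 1 and triangles replicate 2. The shares lie between 20.0% and 33.6%, with the widest spread in the Tdg cohort.

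The genes around the receptors were described from lists. Of 8 genes for host ligands, none was called at 0 h between TetTKO and TetWT, where 4.42% of all genes were called higher and 3.15% lower, and the list's median difference was a log2 of 0.02 against 0.01 over all genes. Anxa1, which encodes annexin A1, differed by 0.22 (SE 0.13). Saa3, a serum amyloid A expressed by macrophages, differed by -0.29 (SE 0.13). With KLA, 1 of 7 tested ligand genes was called in the Tdg cohort, Camp, which encodes the cathelicidin precursor which rose by 3.51 (SE 1.16) but averaged only 17.3 normalised counts; it was named after its values were seen, and its call was lost without any 1 of 6 libraries, TdgWT replicate 2 at 0 h among them. In TetWT, where 13.2% of all genes were called higher and 11.1% lower, Camp and Saa3 rose (Saa3 by 0.83, SE 0.13) and Anxa1 fell by 0.83 on the log2 scale (SE 0.13).

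Of 19 genes for signalling below the receptors, 4 rose and 2 fell with KLA in the Tdg cohort, with a median log2 change of 0.17 against -0.02 over all genes, of which 8.76% were called higher and 6.94% lower. Those that rose were Pik3r6 (2.11, SE 0.30, adjusted p = 9.06e-11) and Pik3r5 (1.25, SE 0.31), the regulatory subunits of phosphoinositide 3-kinase gamma, its catalytic subunit Pik3cg (1.15, SE 0.30), and the GTPase Rac2 (0.76, SE 0.18). Pik3r6 measured 132 and 78.3 in TdgWT at 0 h and 532 and 708 at 6 h. The largest fall was that of Rgs2, a GTPase-activating protein that ends G protein signals, by 2.52 on the log2 scale (SE 0.31, adjusted p = 1.96e-14), from 3764 and 3695 to 698 and 539 normalised counts in TdgWT. Plcb2, a phospholipase C, fell by 0.79 (SE 0.24). The inhibitory G protein gene Gnai2 had log2 changes of 0.05 in the Tdg cohort and -0.02 in TetWT. In TetWT 9 of the 19 rose and 5 fell (13.2% and 11.1% of all genes), and the same 4 genes for the kinase and Rac2 had log2 changes of 1.94, 1.07, 0.93 and 0.91. At 0 h TetTKO was above TetWT in 3 of 19 (4.42% of all genes), namely Rac2 (0.68, SE 0.11, adjusted p = 1.76e-07), Plcb2 (0.49, SE 0.15) and Prex1, a Rac exchange factor (0.48, SE 0.09). The call of Plcb2 was lost when any 1 of the 4 libraries at 0 h was left out (adjusted p 0.221 to 0.269), and those of Rac2 and Prex1 were kept. In the Tdg cohort the calls of Plcb2, Ncf4 and Cmklr1 with KLA were each lost without TdgKO replicate 2 or TdgWT replicate 2 at 6 h, that of Plcb2 also without TdgKO replicate 2 at 0 h or TdgKO replicate 1 at 6 h, and those of Ncf4 and Cmklr1 also without TdgKO replicate 1 at 0 h, while those of the kinase genes, Rac2, Rgs2, Cybb and C5ar2 were kept whichever library was left out.

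Of the 5 NADPH oxidase subunits, 3 rose with KLA in the Tdg cohort, where 8.76% of all genes were called higher, and 3 in TetWT, where 13.2% were. Cybb, the catalytic subunit, rose by 2.19 on the log2 scale in the Tdg cohort (SE 0.19, adjusted p = 2.55e-27) and by 2.13 in TetWT (SE 0.11). The cytosolic subunits Ncf4 and Ncf1 rose by 0.91 (SE 0.28) and 0.74 (SE 0.18) in the Tdg cohort. At 0 h only Ncf4 was called between TetTKO and TetWT (0.43, SE 0.11, adjusted p = 0.00149), with 2166 and 2180 normalised counts against 1550 and 1674, and it was lost without TetTKO replicate 2 (adjusted p = 0.111) or TetWT replicate 1 (adjusted p = 0.148). Cybb differed by -0.16 (SE 0.11) and was thus not among the genes higher before KLA.

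Other chemoattractant receptors did not share the rise of the pair as a group. With KLA their median log2 change in the Tdg cohort was -0.13, against -0.02 over all genes. Of 6 tested in the Tdg cohort, Cmklr1, a chemerin receptor, rose by 0.77 with KLA (SE 0.23) and C5ar2, a receptor for C5a, fell by 1.98 (SE 0.28, adjusted p = 1.10e-10). Over all genes, 8.76% were called higher and 6.94% lower in that comparison. C5ar2 was also the 1 gene of the list higher in TetTKO at 0 h (0.91, SE 0.20; adjusted p = 0.0513 without TetWT replicate 2), with 470 and 429 normalised counts against 248 and 230. Its direction with KLA was opposite to that of Fpr1 and Fpr2. Over all genes, 4.42% were called higher in TetTKO at 0 h.

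**Figure D5:**
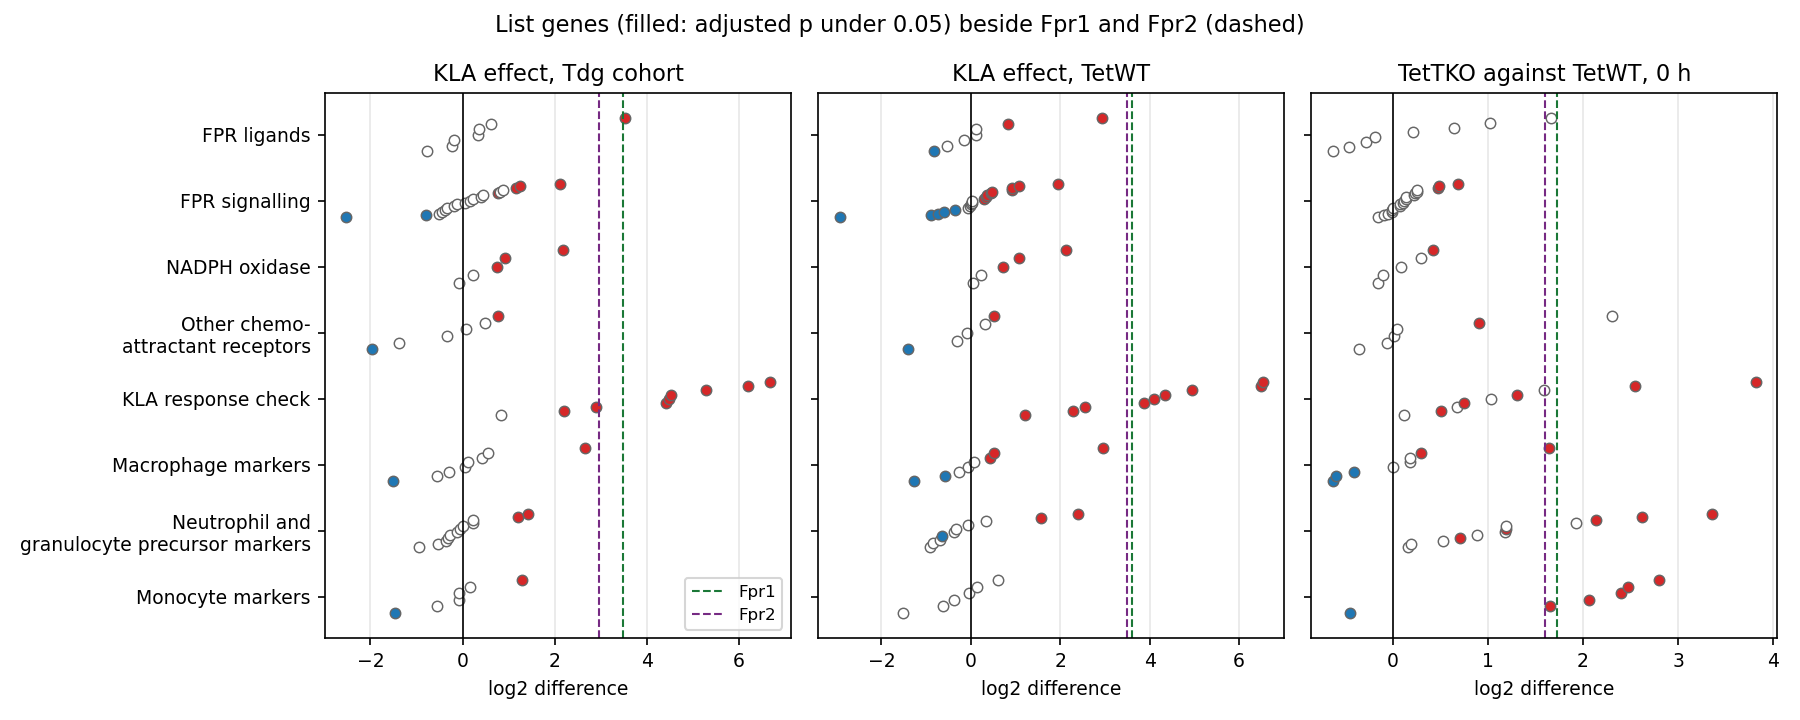
Log2 differences of the genes of 8 lists (rows; filled where DESeq2's adjusted p was under 0.05, red higher and blue lower) for KLA in the Tdg cohort, KLA in TetWT and TetTKO against TetWT at 0 h, with Fpr1 and Fpr2 as dashed lines. Most ligand and signalling genes lie nearer to 0 than the receptors in all 3 panels.

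Stimulation genes and markers of other myeloid cells moved with the receptors at 0 h, in a comparison in which 4.42% of all genes were called higher and 3.15% lower. Of the 9 genes of the KLA response list, 5 were higher in TetTKO at 0 h, with a median log2 difference of 1.03, among them Il1b (3.82, SE 0.53), Ptgs2 (2.54, SE 0.53) and Cxcl2 (1.31, SE 0.19). Of 6 monocyte markers, 5 were higher (Plac8 by 2.80, Ccr2 by 2.47, F13a1 by 2.40) and Ly6c2 was lower by 0.45. The summed monocyte list measured 4150 and 6394 in TetTKO against 2498 and 2697 in TetWT. Of 12 neutrophil and granulocyte precursor markers found, 5 were higher, including Lcn2 (2.62, SE 0.17), S100a8 (1.19, SE 0.20) and Mmp8 (0.71, SE 0.16), and the list summed to 6183 and 6957 against 3365 and 3541. Mmp8, Lcn2 and Csf3r made up most of this sum in each of these libraries, and KLA also raised Lcn2 and Csf3r in TetWT. Of 8 macrophage markers, Cd14 and Itgam were higher and Cd68, Mertk and Lyz2 lower, and the list summed to 295914 and 292056 against 355054 and 343824. Of 3 B cell markers, 2 were higher, Cd79a and Ms4a1, and the list summed to 42.6 and 206 against 20.2 and 17.05. On the lists of T cells, dendritic cells and mast cells 0 genes were called at 0 h, where 2, 2 and 1 could be tested, and the dendritic cell list summed to 14.5 and 14.3 in TetTKO against 2.52 and 3.04 in TetWT. Of the 28 list genes called at 0 h, 9 kept their call whichever library was left out, among them Cd14, Cxcl2, Il1b, Lcn2, Prex1, Ptgs2, Rac2 and S100a8. The fewest held without TetTKO replicate 2, where 16 were lost, Plac8, Ccr2 and F13a1 among them, with log2 differences of 2.41, 1.77 and 2.06; 14 were lost without TetWT replicate 1 and 12 without TetWT replicate 2. The part of these cells or of this activation in the difference of Fpr1 and Fpr2 was not tested, and in bulk RNA more cells of a type and more RNA per cell cannot be told apart.

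The neutrophil list also varied within the Tdg cohort. TdgKO replicate 1 at 0 h had a sum of 9131 over that list, against 3021 to 3747 in the other unstimulated libraries of the cohort. It had 1385 normalised counts of S100a8, 1863 of S100a9 and 176 of the neutrophil receptor Cxcr2. In the same library Fpr1 measured 1070 and Fpr2 456. Several of these markers also differed by replicate number in both genotypes. In TdgWT Cxcr2 measured 70.9 in replicate 1 and 8.70 in replicate 2 at 0 h, and 73.9 and 0.987 at 6 h. Mpo of the same list measured 582 and 87.0 there at 0 h. In TdgKO replicate 2 at 0 h Cxcr2 measured 4.04. Mmp8 and Csf3r were instead lower in replicate 1 in both genotypes, and Lcn2 differed in direction between them. In TetTKO at 0 h Cxcr2 measured 2.90 and 5.01, and in TetWT 1.68 and 1.83. Any relation of these markers to the receptors was not tested. At 6 h the list summed to 8929 and 8742 in TetTKO against 5765 and 5884 in TetWT.

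The genes most like the receptors were sought over the 16 BMDM libraries among 9475 genes with a mean of at least 50 normalised counts, by Pearson's r of log2 values centred within each cohort. The libraries share conditions, so r is a description and mostly measures the response to KLA. Fpr1 and Fpr2 had an r of 0.991 with each other. Fpr1 was closest to Gpr84, a receptor for medium-chain fatty acids (0.995), Socs3, an inhibitor of cytokine signalling (0.992), the transcription factor gene Cebpd (0.991) and Ptgs2, which encodes the inducible cyclooxygenase (0.988). Fpr2 was closest to the zinc finger gene Zfp811 (0.992), the actin regulator Vasp (0.991), the adenosine receptor gene Adora2a (0.988) and the activation marker Cd69 (0.987). Without centring, 2 of the 5 nearest genes of Fpr1 stayed on the list, namely Socs3 and Fpr2 itself. For Fpr2, 3 stayed, namely Zfp811, Adora2a and Fpr1 itself. The pair then had an r of 0.991. Gpr84 was no longer among the 12 nearest genes of Fpr1. Gpr84 measured 404 and 385 in TetWT and 1000 and 1563 in TetTKO at 0 h, then 4089 and 3999 in TetWT and 4307 and 5417 in TetTKO at 6 h. Socs3 measured 303 and 248 against 701 and 964 at 0 h, then 4614 and 5002 against 4396 and 5858. In Gpr84 the TetTKO libraries at 6 h lay above those of TetWT, and in Socs3 they spread around them.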

How the data were processed

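Poly(A) RNA was sequenced from directional libraries as paired-end reads. The authors aligned the reads to mm9 with HISAT2 and counted them per gene with HTSeq, and whole-number counts per gene were deposited for each library, without normalisation. The gene annotation and the strand setting of the counting are not given in the sources used here. The 5 HTSeq tallies were left out of library sizes and tests (reads without a unique position were 16.6% to 25.8% of all tallies in BMDMs). Each BMDM cohort of 8 libraries was fitted with DESeq2 1.42.0 (Wald test, median-of-ratios factors, 1 term per group, Benjamini-Hochberg adjusted p under 0.05 over all genes tested). Alternatives were edgeR 4.0.16, TMM factors, a minimum of 10 counts in 2 libraries, fits of only the groups compared, the replicate number as a block and each library left out. The scripts were tested on simulated data. The genes named were the receptors, their family, the nearest genes, called list genes with the largest changes and a mean of at least 50, and the 5 genes most like each receptor. The receptors and lists were chosen with earlier results of these data known. The list genes under these alternatives were added after the data were seen. The values of 1 list gene are not reported here.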

Additional observations from a re-analysis of the deposited data

Results flagged for a closer look

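Among the list genes, the effect of KLA on Lcn2, which encodes the iron-sequestering protein lipocalin 2, differed between the genotypes of the Tet cohort by a test of the difference itself. On the log2 scale it was smaller in TetTKO than in TetWT, with a difference of -1.01 (SE 0.23, adjusted p = 0.00845, DESeq2). Lcn2 was the 1 list gene called in this comparison, in which 0.429% of all genes were called. Lcn2 measured 227 and 170 normalised counts in TetWT and 1405 and 1036 in TetTKO at 0 h, then 1047 and 1026 in TetWT and 3453 and 2933 in TetTKO at 6 h. Its TetTKO libraries lay above those of TetWT at both times. In normalised counts, unlike in folds, KLA added more in TetTKO than in TetWT. The call was lost without TetTKO replicate 1 at 0 h (adjusted p = 0.166), TetTKO replicate 2 at 6 h (0.0728) or TetWT replicate 2 at 0 h (0.466).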

How the results depend on the processing

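Of 104 values of Fpr1 and Fpr2 under TMM factors, edgeR, the count minimum, fits of only the groups compared and the replicate block, those tested stayed on their side of the threshold, with the sign of every called value kept, and the untested ones of the Tet cohort moved by less than the replicate spread. With 1 library left out this held for 164 of 176, and the other 12 were untested values of the Tet cohort that moved by more than the replicate spread without a TetTKO library at 0 h. The TET effect at 0 h then ranged from 1.47 to 1.93 for Fpr1 and from 1.36 to 1.80 for Fpr2, the KLA effect in TetTKO from 1.80 to 2.26 and from 1.76 to 2.20, and the difference between KLA effects from -1.81 to -1.35 and from -1.72 to -1.28. The change in the Fpr2 share ranged from -8.65 to -5.80 percentage points, passing the exact permutation test only without TdgWT replicate 1 at 0 h (p = 0.0286).

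The labels do not say that a replicate number marks a shared animal or batch, and each comparison has 2 pairs. Deviations of same-numbered libraries correlated at 0.333 to 0.816 in the Tdg cohort, at 0.527 and 0.415 within the genotypes of the Tet cohort and at -0.0113 to 0.0409 between them. With the replicate block the averaged KLA effect was 3.47 for Fpr1 and 2.95 for Fpr2, and the TET effect at 0 h 1.71 and 1.59. Permuting the share within pairs gave p = 0.125, the smallest that exact test allows. The block called 1805 genes for KLA in TdgWT against 1006, 1373 in TdgKO against 826, 4 for TDG at 0 h against 0 and 88 for the TET difference in KLA effects against 52.

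edgeR called 1637 genes for TET at 0 h against 916, 1407 at 6 h against 760 and 270 for the difference in KLA effects against 52. With 1 library left out, calls ranged from 343 (without TdgWT replicate 2 at 6 h) to 2188 (without TdgWT replicate 1 at 0 h) for KLA in TdgWT, from 376 to 1106 in TdgKO, from 1043 to 2528 for the average, from 269 (without TetTKO replicate 2) to 973 for TET at 0 h, from 264 to 704 at 6 h, from 1872 to 2791 for KLA in TetWT and from 12 to 139 for the TET difference in KLA effects. The cause was not tested.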

Other observations

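After KLA, when the receptors of the genotypes lay close together, 28 list genes were called between TetTKO and TetWT by DESeq2 (adjusted p under 0.05), with 6.27% of all genes called. Higher were 6 of 12 tested neutrophil markers, 5 of 6 monocyte markers and 4 of 9 KLA response genes. So were 3 of 19 signalling genes, 1 of 8 ligand genes and 1 of 3 B cell markers. Lower were 4 of 8 macrophage markers, 2 of 6 other chemoattractant receptors, 1 monocyte marker and 1 ligand gene. Over all genes 3.08% were higher and 3.19% lower. The lists were chosen with earlier results of these data known. Of the 28 list genes, 5 kept their call whichever library was left out. Among them were Rgs1, a GTPase-activating protein of G protein signalling, which was higher in TetTKO (0.97 on the log2 scale, 0.71 to 1.28 with 1 library left out), and C5ar1, the main receptor for C5a, which was lower (-0.79, -0.94 to -0.62). The other 3 were Il1a, Lcn2 and Lyz2. Anxa1 (0.39) and Rac2 (0.34) were called with all libraries but each lost its call in 7 of 8 fits without 1 library, Saa3 (-0.43) in 3 and Prex1 (0.36) in 2. Anxa1, Rac2 and Prex1 were also not called when only the groups compared were fitted.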
